A study of Mus musculus with 6 samples.

Results

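Asns, Aass and Slc25a13 were examined in the liver of antibiotic-treated (ABX) mice. They were chosen by gene symbol, as the genes of asparagine synthesis, lysine breakdown and mitochondrial aspartate export, and make up 3 of the 55357 rows of the count table. Liver RNA was sequenced from 3 ABX mice under a short day (SD, with 8 h of light and 16 h of darkness) and 3 ABX mice under the normal cycle (NLD, with 12 h of light and 12 h of darkness), with 1 library a mouse. All 6 were C57BL/6 mice (C57BL/6N in the study's methods) that drank gentamicin, sulbenicillin, cephalosporin and amphotericin B, so the NLD controls were antibiotic-treated too. The labels give day 28 and the methods a longer trial. Mice were housed singly, fasted and killed within the same morning hours, and mice without antibiotics were not analysed here.

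Asns encodes asparagine synthetase, which forms asparagine from aspartate and takes the amide group from glutamine. In mammals it is a classical target of the amino acid response, in which the transcription factor ATF4 is made when amino acids run short or the endoplasmic reticulum is stressed, and normal liver expresses little of it. Aass encodes a mitochondrial enzyme with 2 activities that carries out the opening steps of lysine breakdown through saccharopine, and its loss causes hyperlysinemia in humans. Slc25a13 encodes citrin, the aspartate-glutamate carrier of liver mitochondria. It delivers aspartate to the cytosol, where argininosuccinate synthetase of the urea cycle uses it, and it is part of the malate-aspartate shuttle that moves reducing equivalents into mitochondria.

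Whether a row holds the gene it is named after may depend on the genome build, which was not tested row by row. The methods name GRCm39 and the submitters' notes GRCm38, and the letters of each RefSeq promoter window of GRCm38.p6 were therefore looked up in GRCm39. Of 20877 rows with such a match, 20269 (97.1%) were offset by over 1000 bases, and 516 (2.47%) by at most 5 bases, which are called unshifted here. On chromosome 6, the offset was 0 for 62 promoters between 3182866 and 8950068 and 1 base for 134 promoters between 10895246 and 30733555 (GRCm38.p6). Slc25a13 (ENSMUSG00000015112.16, minus strand) spans 6040252 to 6217294 of chromosome 6 in GRCm39 (GENCODE) and 6041218 to 6217304 in GRCm38 (RefSeq). Asns (ENSMUSG00000029752.13, minus strand) spans 7671667 to 7728461 in GRCm39 and 7675165 to 7693209 in GRCm38, and Aass (ENSMUSG00000029695.14, minus strand) 23072172 to 23132991 and 23072173 to 23132986. GENCODE entries were matched by gene ID without its version, so they can differ from the gene models that were counted. The promoters of Slc25a13 and Asns had an offset of 0 and that of Aass of 1 base, so the letters of each RefSeq promoter window lie within 1 base of the same coordinate in both builds, while the annotated gene ends differ between GENCODE and RefSeq. The antisense gene 1700012J15Rik overlaps Asns in GENCODE and was listed at 0 in the 6 libraries.

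The promoters are shown because each carries a different set of motif letters, some of them shared, with the rarest letters in Asns. Each window runs from 250 bases before to 50 bases after the RefSeq start, in GRCm38.p6 on the minus strand, and capitals mark the motif letters searched on both strands.
Asns, chr6:7693160-7693459: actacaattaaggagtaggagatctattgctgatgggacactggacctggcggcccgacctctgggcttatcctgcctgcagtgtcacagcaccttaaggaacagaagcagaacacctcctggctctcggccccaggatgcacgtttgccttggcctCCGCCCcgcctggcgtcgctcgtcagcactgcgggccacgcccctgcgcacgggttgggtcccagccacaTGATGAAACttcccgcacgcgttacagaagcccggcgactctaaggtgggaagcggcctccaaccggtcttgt
Aass, chr6:23132937-23133236: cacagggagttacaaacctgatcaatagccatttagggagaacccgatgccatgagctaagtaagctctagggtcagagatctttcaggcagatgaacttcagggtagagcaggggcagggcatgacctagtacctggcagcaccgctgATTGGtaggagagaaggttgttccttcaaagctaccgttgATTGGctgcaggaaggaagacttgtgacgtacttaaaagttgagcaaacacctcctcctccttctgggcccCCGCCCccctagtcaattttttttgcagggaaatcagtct
Slc25a13, chr6:6217124-6217423: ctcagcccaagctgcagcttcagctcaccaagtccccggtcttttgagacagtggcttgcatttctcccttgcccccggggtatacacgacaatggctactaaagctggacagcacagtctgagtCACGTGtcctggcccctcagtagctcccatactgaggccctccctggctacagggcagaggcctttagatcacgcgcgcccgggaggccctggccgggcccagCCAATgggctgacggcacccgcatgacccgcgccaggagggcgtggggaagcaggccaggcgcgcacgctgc

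In the Asns promoter, the letters TGATGAAAC lay at -23 to -15 bases, counted from the start. This is the amino acid response element described for the human gene, and it holds the core TGATGNAA of C/EBP-ATF sites. The full letters stood in 81 of 32851 promoter windows (0.247%), and the core in 1304 (3.97%). The Aass window had CCAAT box letters on the reverse strand at -101 to -97 and -61 to -57 bases, which 37.4% of windows hold at least once. The Slc25a13 window had CACGTG, the E-box bound by clock and other helix-loop-helix factors, at -125 to -120 bases, as did 7.15% of windows, and a CCAAT box at -22 to -18 bases. The GC box GGGCGG, found in 35.7% of windows, lay in reverse in the Asns window at -93 to -88 bases and in the Aass window at 11 to 16 bases, past the start. These matches are letters only and no binding was measured. The G and C share was 61.7% in Asns, 50.3% in Aass and 65.0% in Slc25a13.

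**Figure D1:**
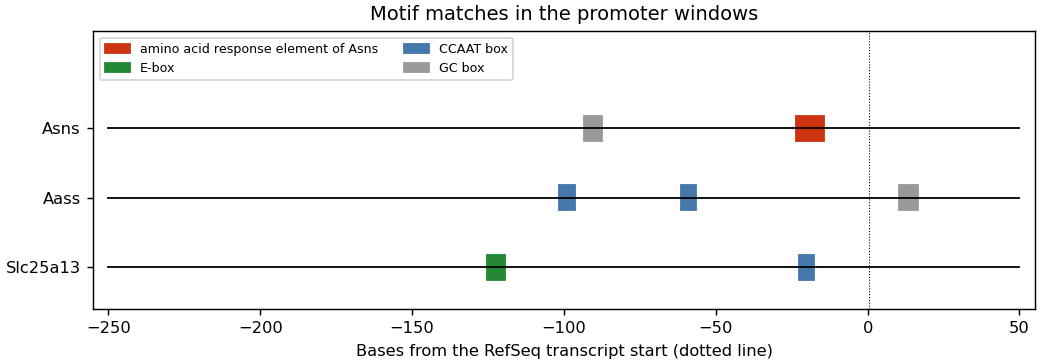
Motif matches on either strand in the promoter windows of Asns, Aass and Slc25a13, by distance in bases from the RefSeq transcript start. The amino acid response element stood in the Asns window at -23 to -15 bases, and the E-box in the Slc25a13 window.

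None of the 3 genes differed between SD and NLD livers beyond the spread between mice. The levels ran over a wide range, with Aass and Slc25a13 among the most abundant rows of this table and Asns below the middle of the rows tested. Levels are in CPM, the count scaled to library size with TMM factors, and SD was compared with NLD by edgeR's quasi-likelihood test (Benjamini-Hochberg adjusted p over 7261 rows left by the filter on low counts). All 3 rows passed it. None was called at an adjusted p under 0.05, where 0.289% of all rows were, none was called by DESeq2, where 1.9% were, and none had groups that do not overlap, where 17% did. The exact permutation test has 3 mice a group and its smallest possible p is 0.1.

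The first principal component (32% of the variance) set 2 libraries apart, NLD replicate 2 with a score of 58.4 and NLD replicate 3 with 22.3, against scores between -37.8 and -8.38 in the rest. Without NLD replicate 2, the log2 fold change was 0.48 for Asns, -0.03 for Aass and -0.09 for Slc25a13. Without NLD replicate 3 it was 0.35 for Asns, 0.01 for Aass and 0.06 for Slc25a13. None of these was called. Total counts were 5548753 to 6932965 in SD and 5497797 to 6457190 in NLD libraries.

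Asns, the synthetase, had 6.10, 17.6 and 6.11 CPM in SD livers, against 6.53, 9.03 and 7.63 CPM in NLD livers (replicates 1, 2 and 3). SD replicate 2 lay above all other libraries and the other SD libraries below every NLD library, so that the groups overlapped. The mean was 9.94 ± 6.65 CPM in SD livers and 7.73 ± 1.25 CPM in NLD livers (standard deviation, n = 3 each), while the median was 6.11 in SD and 7.63 in NLD, in the opposite order. The log2 fold change was 0.36 (standard error 0.49, 95% interval -0.80 to 1.53), which spans 0.575-fold to 2.88-fold, and the adjusted p from edgeR was 0.855. The exact permutation test, two-sided on log2(CPM + 1), gave p = 1.0. Without SD replicate 2 the log2 fold change was -0.35 (adjusted p = 0.785 from edgeR), so this library set the direction.

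The high library was not within the counting error of the others. Asns had 36, 120 and 40 counts in SD livers, against 38, 54 and 46 counts in NLD livers. Without TMM scaling, this was 17.3 CPM in SD replicate 2, with a 95% Wilson interval of 14.5 to 20.7, against a highest upper bound of 10.9 CPM in the other libraries (NLD replicate 2). These intervals cover counting error only.

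Aass, of lysine breakdown, had 5216, 3323 and 3885 CPM in SD livers, against 4014, 4196 and 4394 CPM in NLD livers. The SD libraries lay on both sides of the NLD libraries, with the highest value in SD replicate 1 and the lowest in SD replicate 2. The mean was 4141 ± 972 CPM in SD livers and 4201 ± 190.0 CPM in NLD livers (standard deviation, n = 3 each). The log2 fold change was -0.02 (standard error 0.18, 95% interval -0.46 to 0.42, or 0.728-fold to 1.34-fold, adjusted p = 0.981 from edgeR), and the exact permutation p was 0.8. The sign turned in several of the alternative settings, with values between -0.22 and 0.10 over all of them.

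Slc25a13, the aspartate carrier, had 2978, 3145 and 3861 CPM in SD livers, against 3703, 2679 and 3358 CPM in NLD livers. The groups overlapped throughout, with the lowest library in NLD and the highest in SD. The mean was 3328 ± 469 CPM in SD livers and 3247 ± 521 CPM in NLD livers (standard deviation, n = 3 each). The log2 fold change was 0.04 (standard error 0.17, 95% interval -0.38 to 0.45, or 0.771-fold to 1.36-fold, adjusted p = 0.961 from edgeR), with an exact permutation p of 0.9. Without SD replicate 3 or NLD replicate 2 the log2 fold change was -0.09 in each case.

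**Figure D2:**
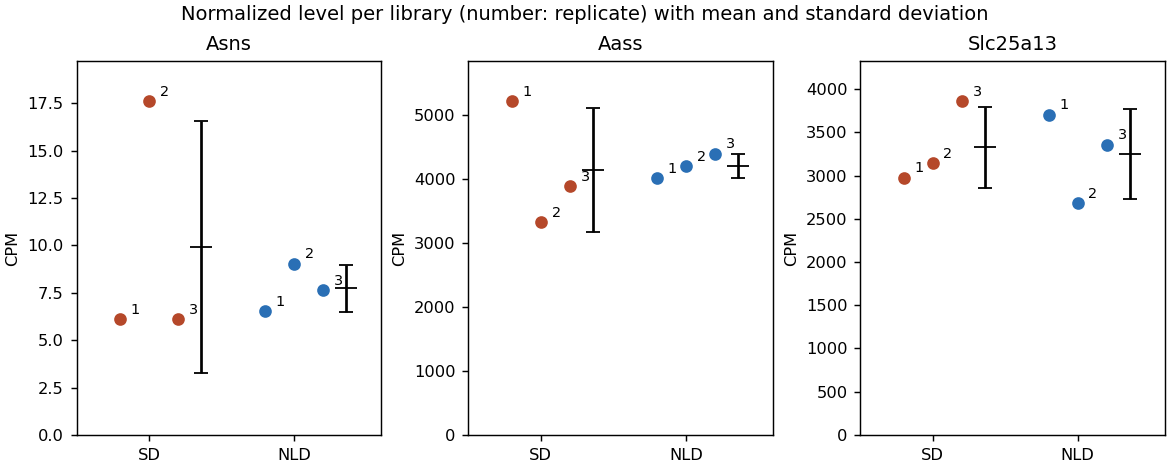
CPM of Asns, Aass and Slc25a13 in each library, with the replicate number beside each point and the mean and standard deviation of the 3 libraries of each group in black. SD replicate 2 stands alone for Asns at 17.6 CPM, and the groups overlap in all 3 panels.

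The changes of the 3 genes were set beside those of other unshifted rows. Of the 516 unshifted rows 266 passed the filter, and 1 of these was called higher and none lower by edgeR. Their median log2 fold change was -0.03, against 0.03 over all rows tested. Among the 242 with a mean of at least 5 CPM, 65 had a log2 fold change larger in size than Asns, 234 than Aass and 227 than Slc25a13. Aass and Slc25a13 were thus among the rows with the smallest differences, and their intervals are narrower than that of Asns.

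**Figure D3:**
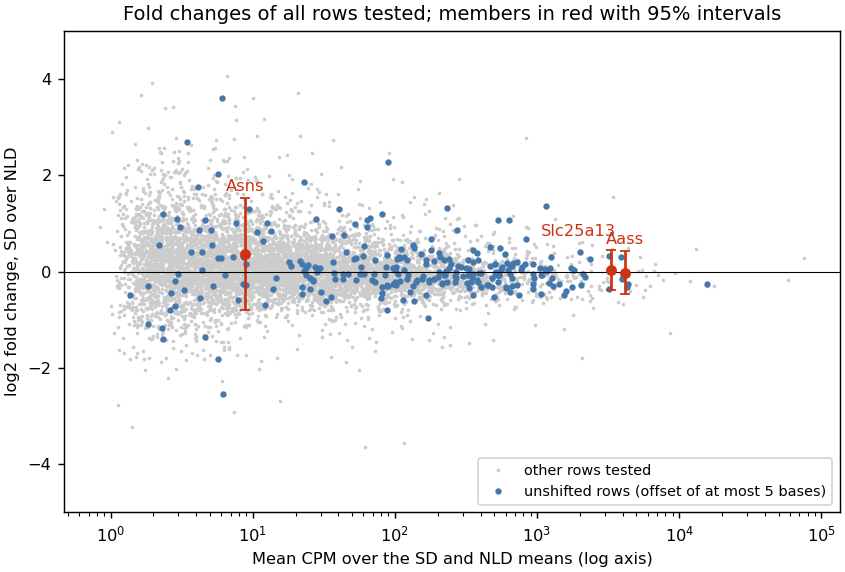
The log2 fold change of SD over NLD against the mean CPM (log axis) for all 7261 rows tested, with unshifted rows in blue and the members in red with 95% intervals. Aass and Slc25a13 lie at the zero line at high level, the interval of Asns reaches from -0.80 to 1.53, and 27 rows lie outside the plotted range of 5 in either direction.

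The spread between mice differed among the 3 genes. The standard deviation of Asns was 66.9% of the mean in SD livers and 16.2% in NLD livers, and 10 of the 242 rows had a larger ratio in SD livers. For Aass it was 23.5% in SD and 4.52% in NLD, where 224 of the 242 rows varied more than Aass. Slc25a13 varied about alike, by 14.1% in SD and 16.0% in NLD. The median row of this class varied by 15.3% in SD and 13.8% in NLD. The spreads were not tested against each other.

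Levels were compared between genes per kilobase of the GENCODE canonical transcript (4.90 kb for Asns, 3.71 kb for Aass and 4.21 kb for Slc25a13). Aass had a mean of 1117 CPM per kilobase in SD and 1133 in NLD livers, Slc25a13 791 in SD and 771 in NLD, and Asns 2.03 in SD and 1.58 in NLD. The order of the levels was the same in every library. Per kilobase, Aass exceeded Slc25a13 by a ratio of 1.99, 1.20 and 1.14 in SD livers, against 1.23, 1.78 and 1.49 in NLD livers. The groups overlapped in this ratio too. By CPM alone, Aass was the 30th and Slc25a13 the 38th of the 7261 rows, and Asns the 4327th. Among the 266 unshifted rows tested, Aass was the 4th, Slc25a13 the 7th and Asns the 227th. Of 25 hepatocyte markers 11 were listed at 0, so CPM and ranks hold for this table and not for all liver transcripts. The length of the transcripts that these livers express was not measured, and with all annotated exons Slc25a13 had 329 CPM per kilobase in SD and 321 in NLD, below Aass at 1083 in SD and 1099 in NLD.

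No pair of the 3 genes had a positive correlation across mice. SD replicate 2 had the highest level of Asns and the lowest of Aass, SD replicate 1 the highest of Aass, and SD replicate 3 the highest of Slc25a13. Over the 6 libraries, Pearson's r of the log2(CPM + 1) was -0.71 for Asns and Aass, -0.35 for Asns and Slc25a13 and -0.28 for Aass and Slc25a13. These values describe the 6 mice of both groups, and r without single libraries was not computed.

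The rows most like each gene were sought among the 241 other rows of the same class by Pearson's r over the 6 libraries. For Asns they were Tpm2 (r = 0.98), a tropomyosin of contractile cells, Tes (r = 0.98), a protein of focal adhesions, and Col1a2 (r = 0.91), a chain of type I collagen made by stellate cells and fibroblasts. Tpm2 had 47.9, 190.4 and 57.1 CPM in SD livers, against 68.7, 88.6 and 73.8 CPM in NLD livers. Col1a2 had 152, 317 and 141 CPM in SD livers, against 128, 249.7 and 149.6 CPM in NLD livers. In all 4 rows SD replicate 2 was the highest library and NLD replicate 2 the second highest. Tpm2, Tes and Col1a2 were chosen by their r with Asns over these libraries, so a like order follows from that choice. None of the 3 passed the test (adjusted p from edgeR 0.870 for Tpm2, 0.908 for Tes and 0.897 for Col1a2).

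Col1a2 belongs to the markers of stellate cells and fibroblasts that were set beside the genes. Of the 8 markers of that list 4 were listed at 0 in all libraries, Col1a2 is the single one that is unshifted, and the sum of the list was 158 to 338 CPM in SD livers and 150 to 264 CPM in NLD livers. Most of this sum was Col1a2, with 317 of 338 CPM in SD replicate 2. The row labelled Col3a1 was likewise highest in SD replicate 2 (2.79 CPM), with NLD replicate 2 next (2.68 CPM). The rows labelled Pdgfrb and Reln had another order. Pdgfrb had 16.9 CPM in SD replicate 2 and its highest level, 17.2 CPM, in NLD replicate 1. Reln had 1.47 CPM in SD replicate 2 and its highest level, 3.78 CPM, also in NLD replicate 1. In bulk tissue, more cells of a type and more RNA per cell cannot be told apart. The part of such cells in the Asns level was not tested. Of the 25 hepatocyte markers, Pon1 and Pon3, paraoxonases that the liver secretes, are unshifted. Pon1 had 14191 ± 1027 CPM in SD livers and 16973 ± 1809 CPM in NLD livers, and Pon3 874 ± 41.0 in SD and 784 ± 3.52 in NLD (standard deviation, n = 3 each). Neither gene overlapped between the groups, with Pon1 at the lower level in SD and Pon3 at the higher. The same was so for 17% of all rows and 21.1% of the 266 unshifted rows tested. Neither was called (adjusted p from edgeR 0.631 for Pon1 and 0.704 for Pon3). Both rows stood far above the typical row. Cftr, a channel of bile duct cells, is likewise unshifted and had at most 7.19 CPM, in SD replicate 2. The other tested hepatocyte markers are not known to be unshifted, and their mean levels ranged widely. The row labelled Alb had the lowest, 0.93 CPM in SD and 1.57 CPM in NLD livers. The row labelled Cyp7a1 had the highest, 5081 ± 1718 CPM in SD and 1723 ± 646 CPM in NLD livers (standard deviation, n = 3 each). Of the hepatocyte markers tested, none was called (smallest adjusted p from edgeR 0.327). Another 11 hepatocyte markers, such as Apoa1 and Fgg, and all 8 markers of Kupffer cells were listed at 0 in the 6 libraries. None of these rows is known to be unshifted, so that their zeros do not show absence of the transcripts.

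For Aass, the most similar rows were Tspan33, a tetraspanin (r = 0.93), Stra6l, a receptor of retinol-binding protein (r = 0.77), and Msantd4 (r = 0.76). Tspan33 had 118, 50.9 and 72.1 CPM in SD livers, against 86.4, 104.5 and 106 CPM in NLD livers, with its lowest value in SD replicate 2 as for Aass. For Slc25a13 they were B4galt1, a galactosyltransferase of the Golgi (r = 0.87), Mms22l, a factor of replication fork repair (r = 0.75), and Irf5, an interferon regulatory factor (r = 0.74). B4galt1 had 707, 732 and 892 CPM in SD livers, against 753, 601 and 681 CPM in NLD livers. These rows were chosen by their r among many with 6 libraries, and none of the 6 passed the test (adjusted p from edgeR between 0.686 for Stra6l and 0.876 for Mms22l).

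**Figure D4:**
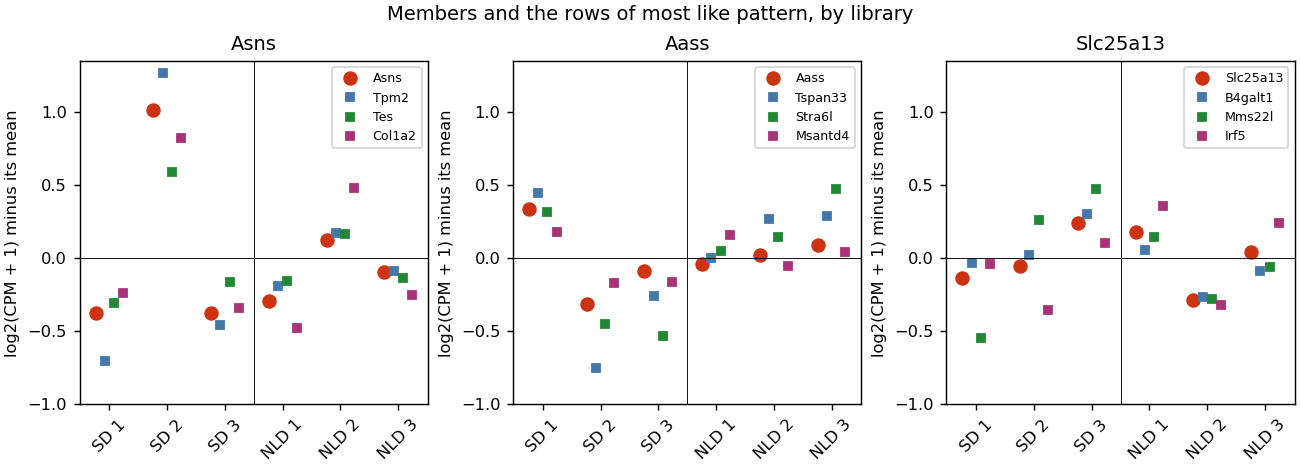
The log2(CPM + 1) of each member and of the 3 rows of most like pattern, minus the mean of the row over the 6 libraries, for each SD and NLD library. Asns, Tpm2, Tes and Col1a2 have their highest value in SD replicate 2, where Aass and Tspan33 have their lowest.

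On the chromosome, the nearest rows that passed the filter on either side of each gene were also looked at. Beside Slc25a13 these were Pdk4, the kinase that holds back pyruvate oxidation in fasting, 544 kb away, and Sem1, a proteasome subunit, 339.9 kb away. Pdk4 did not overlap between the groups, as was so for 17% of all rows and 21.1% of the 266 unshifted rows tested. It had 261, 69.9 and 113 CPM in SD livers, against 29.9, 40.3 and 21.6 CPM in NLD livers (log2 fold change 2.27, adjusted p = 0.359 from edgeR). Slc25a13 beside it had a log2 fold change of 0.04. Sem1 had 653 ± 61.0 CPM in SD and 793 ± 139 CPM in NLD livers (standard deviation, n = 3 each, adjusted p = 0.661 from edgeR). Beside Asns, Sdhaf3, an assembly factor of succinate dehydrogenase, had a log2 fold change of 0.06 and C1galt1, which builds O-glycans, one of 0.12 (adjusted p = 0.930 and 0.778 from edgeR). Beside Aass, Fam3c, a secreted factor, had -0.04 and Cadps2, of vesicle release, 0.38 (adjusted p = 0.961 and 0.622 from edgeR). The 6 neighbours are unshifted, and none of them was called.

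The wider pathways can be read only through rows not known to be unshifted, and whether these hold the genes they are named after was not tested. Asns, Aass and Slc25a13 were the only genes of their lists in unshifted rows. Of the 18 genes of asparagine, aspartate and glutamine enzymes 6 were tested, 4 of 19 of lysine breakdown, 3 of 15 of the urea cycle and malate-aspartate shuttle, and 12 of 36 of the amino acid response. None of these rows was called higher or lower by edgeR, where 0.289% of all rows were. Their smallest adjusted p was 0.431. In the amino acid response, 3 of the 12 rows tested did not overlap between the groups, where 17% of all rows did not, and their directions were mixed. The row labelled Tars, a threonine tRNA ligase, averaged 769 CPM in SD and 503 CPM in NLD livers, whereas Sesn2 averaged 8.30 CPM in SD and 11.9 CPM in NLD and Psph 13.7 CPM in SD and 18.8 CPM in NLD. The promoter of Tars is offset by 86 bases, and those of Sesn2 and Psph by over 1000 bases. The median log2 fold change was 0.05 for the first list, 0.06 for lysine breakdown, 0.62 for the urea cycle and shuttle and 0.04 for the amino acid response, against 0.03 over all rows tested. The 0.62 comes from the rows labelled Asl and Cps1, named here after their values were seen. Cps1, labelled after the entry enzyme of the urea cycle, had 2607, 2268 and 2654 CPM in SD livers, against 1748, 1281 and 1881 CPM in NLD livers, and its groups did not overlap (adjusted p = 0.435 from edgeR). Asl, labelled after argininosuccinate lyase, had 3.39, 2.64 and 4.12 CPM in SD livers, against 1.89, 1.17 and 0.829 CPM in NLD livers, also without overlap (adjusted p = 0.578 from edgeR). The promoters of Asl and Cps1 were not matched between the builds, and whether these rows hold the genes they are named after was not tested. The row labelled Slc25a12, the other aspartate-glutamate carrier, did not pass the filter. Nor did the rows of the stress regulators Atf4, Ddit3 and Trib3, whose promoters are offset by over 1000 bases.

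**Figure D5:**
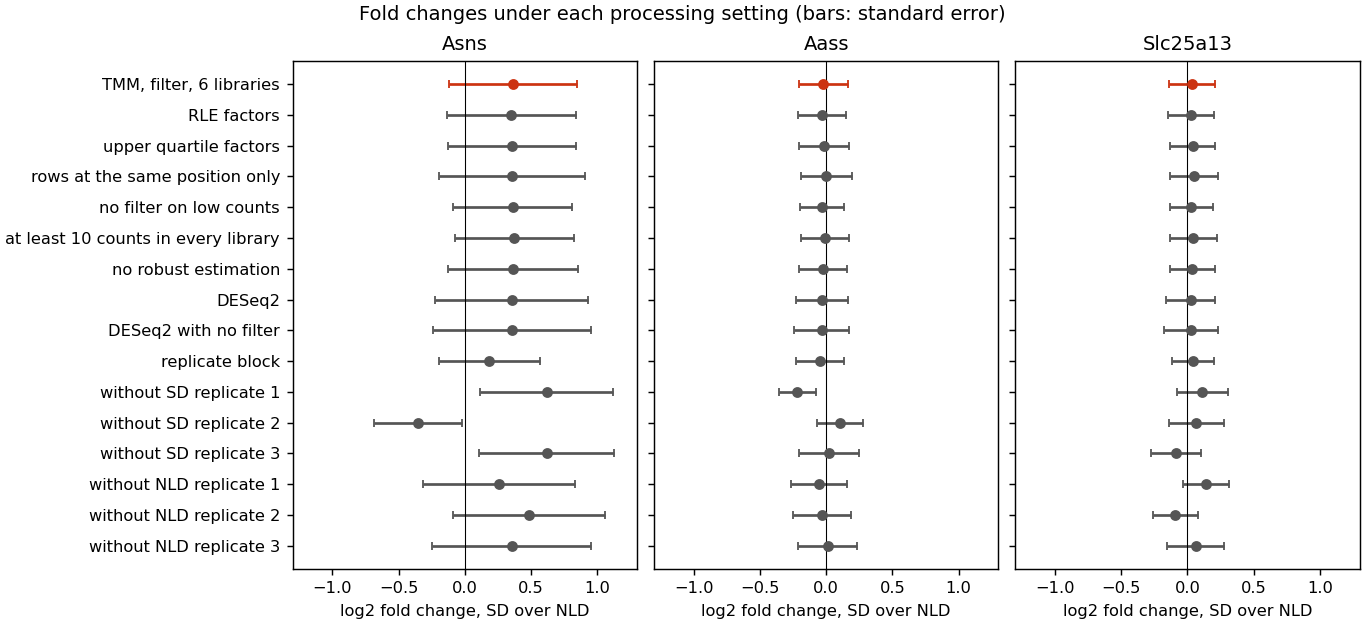
The log2 fold change of SD over NLD with its standard error for Asns, Aass and Slc25a13 under each setting of the processing, with the setting used in the text in red and unshifted rows as those at the same position. Asns turns to -0.35 without SD replicate 2, and Aass and Slc25a13 stay between -0.22 and 0.14.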

How the data were processed

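Hepatic RNA of 6 ABX mice was sequenced on the Illumina platform. Per the methods, the authors cleaned reads with fastp, aligned them with HISAT2 and quantified genes with StringTie, and they deposited whole-number counts per gene, not normalised. The methods name GRCm39, the submitters' processing notes GRCm38 (mm10). Rows were therefore classed by the offset of their promoter between builds, a definition chosen after seeing the data because gene ends differ between the annotations. Unshifted means an offset of at most 5 bases.

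Rows with low counts were removed by filterByExpr (7261 of 55357 kept). SD was compared with NLD by edgeR 4.0.16 (TMM factors, robust quasi-likelihood, R 4.3.3), with DESeq2 1.42.0 as alternative, and the script was tested on simulated data. Single rows were tested by exact permutation in SciPy 1.17.1. Depth was 5497797 to 6932965 counts a library. Alternatives were other scaling factors and filters, a replicate block and leaving out each library. Text names the 3 genes, the 3 rows most like each (mean of at least 5 CPM), the nearest tested rows and list genes in unshifted rows. Other list genes were named after their values were seen. Members and lists were chosen with earlier results of these data known. Promoter sequences are from RefSeq, GRCm38.p6, and all 3 genes matched.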

Additional observations from a re-analysis of the deposited data

How the results depend on the processing

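None of the 3 genes was called under any of the 15 alternative settings, in which the adjusted p was 0.745 to 0.9996 for Asns, 0.896 to 0.9996 for Aass and 0.749 to 0.9996 for Slc25a13. Leaving out each library in turn, the log2 fold change was -0.35 to 0.62 for Asns, -0.22 to 0.10 for Aass and -0.09 to 0.14 for Slc25a13. The sign turned for Asns without SD replicate 2 (-0.35), for Aass without SD replicate 2 (0.10), SD replicate 3 (0.02) or NLD replicate 3 (0.01) and with unshifted rows only (0.0019), and for Slc25a13 without SD replicate 3 (-0.0857) or NLD replicate 2 (-0.0927). The number of rows called by edgeR was 21, against 1 with the 266 unshifted rows only, 44 with no filter, 137 with DESeq2 and 91 with DESeq2 and no filter. Leaving out libraries gave 0 to 30 rows, with 0 without SD replicate 1, 2 or 3 (437, 681 and 397 at an unadjusted p under 0.05). The cause was not tested. With a replicate block, edgeR called 0 rows (766 at an unadjusted p under 0.05, against 616 by edgeR and 721 by DESeq2 without the block), and the log2 fold change was 0.19 for Asns, -0.05 for Aass and 0.04 for Slc25a13. Same-numbered libraries correlated by 0.104, 0.087 and 0.035 in their deviations, so the numbers were not taken as pairs, though each SD library correlated best with its own number. Asns had 36 to 120 counts a library, fewer than Aass or Slc25a13 in every library. The part of depth in its wider interval was not tested.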
